A study of Mus musculus with 23 samples.

Results

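Macrophages from the tissue around a poly(ethylene glycol) (PEG) hydrogel, taken 14 days after the gel was placed under the skin of mice, were compared with macrophages of subcutaneous tissue from mice with no implant. The members are 5 of the 23 libraries of the series, chosen by their labels alone. They are 3 libraries of day 14 macrophages, called day 14 A, B and C here, and 2 of control macrophages, called control A and B. All mice were wild-type C57BL/6J, and per the design note the libraries of a group are biological replicates. A PEG hydrogel is a water-swollen synthetic polymer network. The explanted tissue and gel were digested together with the enzyme blend Liberase TM. Per the design note the macrophages were Cx3cr1-positive and Ly6C-low, so tissue macrophages without the fractalkine receptor Cx3cr1 were not sampled, and the same gate can hold nonclassical monocytes of the blood. Libraries were made with SMART-Seq v4, a whole-transcript method for low RNA inputs. Further libraries serve where stated: macrophages at day 2 and at day 28 of the implant (n = 3 each), and Cx3cr1-positive, Ly6C-high monocytes at day 14 and from mice with no implant (n = 3 each).

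An implanted material is met first by neutrophils and blood monocytes and later by macrophages, which can gather on its surface, fuse into giant cells and drive the deposition of a collagen capsule. This sequence is called the foreign body response. Macrophages of resting connective tissue take up debris and lipoproteins through lectins and scavenger receptors, whereas macrophages derived from recruited monocytes in an injured tissue can turn on inflammatory, hypoxia-driven or matrix-degrading genes.

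Levels are given in CPM, counts scaled to a library total of 1000000 after correction for composition by TMM. Changes are log2 fold changes, day 14 over control, ± their standard error. A gene is called higher or lower where the Benjamini-Hochberg adjusted p of edgeR's quasi-likelihood test over 16260 tested genes was under 0.05. Both groups carried the macrophage markers of the label. Adgre1, which encodes the macrophage antigen F4/80, had 834, 648 and 591 CPM in day 14 A, B and C, against 945 and 741 CPM in control A and B, and the groups overlapped (log2 fold change -0.29 ± 0.27, adjusted p = 0.56). Cx3cr1, the gene of the gate, had 61.1, 52.4 and 84.9 CPM at day 14 and 136 and 57.6 CPM in controls. Of 12 macrophage markers 3 rose, namely Lyz2 (lysozyme), Cd68 (a lysosomal glycoprotein) and Cd14 (the lipopolysaccharide co-receptor), and none fell; 1 of them rose without control A or without day 14 C.

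Total counts were 24722229, 25230923 and 28454289 in day 14 A, B and C, and 10898529 and 26053997 in control A and B. Composition factors ran from 0.784 to 1.02 at day 14 and from 1.28 to 1.41 in controls. Day 14 C stood apart from the other day 14 libraries: its 10 most abundant genes took 26.5% of counts, against 18.1% to 18.8% in day 14 A and B, and its counts fell more steeply with exon length (slope -0.57, against -0.28 to -0.24). The slope was 0.088 in control A and -0.219 in control B. Every day 14 slope thus lay below both controls, and the controls also differed from each other. Rank correlations between libraries were 0.942 to 0.956 within day 14, 0.947 within controls and 0.866 to 0.912 between the groups.

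At day 14, 896 genes were higher and 439 lower than in controls, which is 5.51% and 2.7% of the genes tested and 8.21% together. Counts of list members below are to be read against these shares. The median log2 fold change of all tested genes was -0.08. Scaling by library totals alone, with no composition factors, moved that median to -0.61 and gave 517 higher and 1433 lower genes. Changes are therefore relative to the chosen scaling, and in bulk samples fewer cells of a type and less RNA per cell cannot be told apart. Without control A, 338 genes were higher and 79 lower. Without control B the counts were 491 and 236, and without day 14 C they were 681 and 219.

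Among named genes that averaged 10 CPM or more over the 5 libraries, the 12 largest rises with no overlap between the groups were those of Nos2, Flrt3, Slc9b2, Nt5e, Slc7a11, Tnfrsf9, Slpi, Sphk1, Egln3, Arg1, Vegfa and Trem1. Nos2 (chr11:78920787-78960254, GRCm38), the inducible nitric oxide synthase, had 126, 23.2 and 35.4 CPM in day 14 A, B and C and no count in either control, which makes it at least 994-fold higher when set against 3 counts over the control group. Sphk1, which makes sphingosine 1-phosphate, had 44.2, 35.9 and 63.1 CPM at day 14, against 0.196 and 0.0599 CPM in controls (log2 fold change 8.71 ± 0.72, adjusted p = 2.27e-07). Slpi, a secreted inhibitor of leukocyte proteases, had 378, 250 and 474 CPM at day 14, against 0.588 and 1.08 CPM in controls. These genes sat near 0 in both controls, and every day 14 library was far above them. Trem1, an amplifier of inflammatory signals on myeloid cells, had 265, 171 and 92.9 CPM at day 14, against 0.131 and 0.839 CPM in controls. Tnfrsf9, the costimulatory receptor 4-1BB, had 110, 97.1 and 198 CPM at day 14, against 0.261 and 0.33 CPM in controls.

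By the same filter, the 10 rises with the smallest p belonged to F10, Plaur, Slc7a11, Clec4e, Acot7, Il1rn, Sphk1, Slc2a1, Bhlhe40 and Cd14. F10 (chr8:13037308-13056676), coagulation factor X, had 428, 339 and 380 CPM at day 14, against 9.6 and 11 CPM in controls (log2 fold change 5.21 ± 0.33, adjusted p = 7.94e-09). Plaur, the urokinase receptor that focuses plasmin formation at the cell surface, had 963, 818 and 1002 CPM at day 14, against 66.4 and 52 CPM in controls (3.97 ± 0.27, adjusted p = 1.66e-08). Acot7, a cytosolic acyl-CoA thioesterase, had 116, 104 and 155 CPM at day 14, against 7.97 and 11.6 CPM in controls. Lack of overlap was required by the filter, and ranking by p favours genes whose libraries lie close together. Of all tested genes, 20.3% had every day 14 library above both controls and 23.8% had every day 14 library below them, so lack of overlap alone was common.

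**Figure D1:**
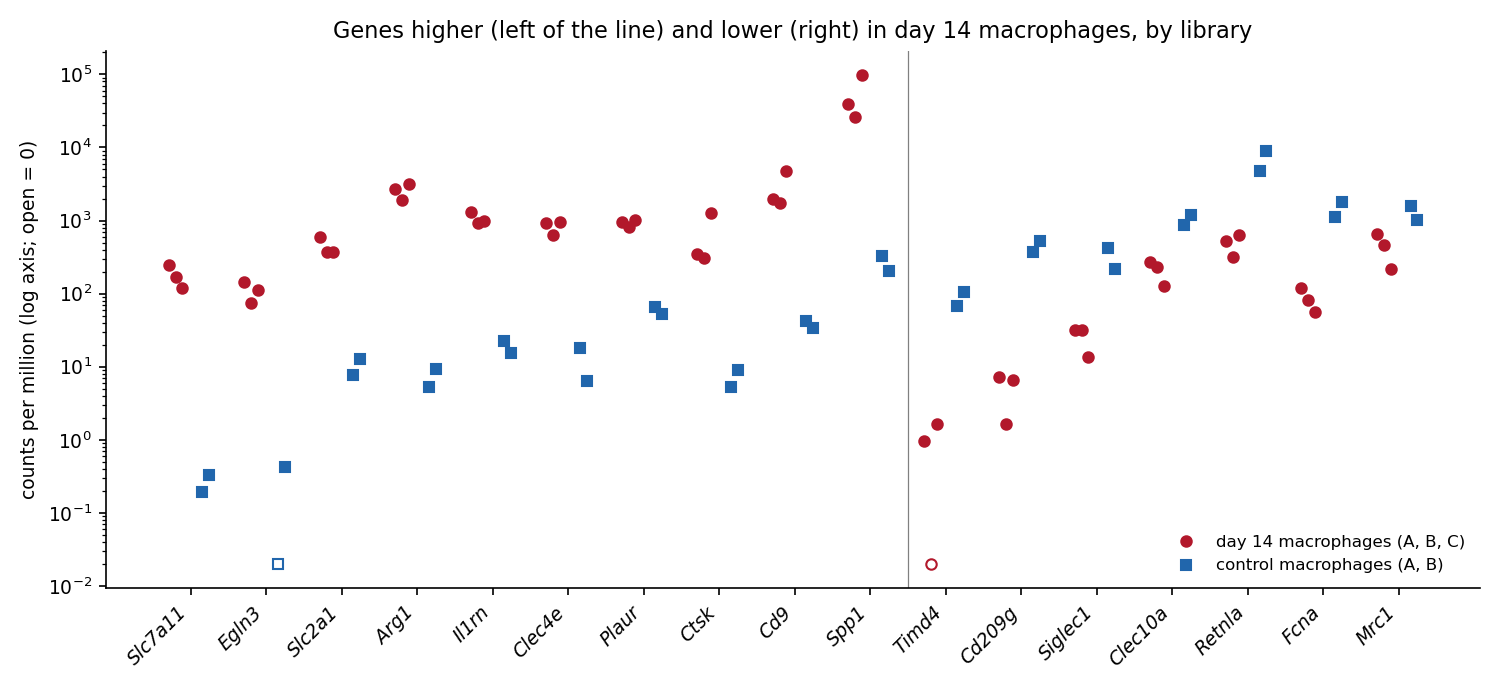
Levels in CPM (log axis) of 17 genes in each library, with day 14 macrophages A, B and C as red circles left of control macrophages A and B as blue squares, and 0 drawn as an open symbol at the foot. The 10 genes left of the line lie higher and the 7 right of it lower at day 14, with no overlap in any of them.

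Measured per kilobase of exon, the most abundant named genes at day 14 were Lyz2, Spp1, Apoe, B2m, Ctss, Fth1, Cd74, Tmsb4x, Gpx1 and Ifitm3. Spp1, which encodes the matrix and cytokine-like protein osteopontin, stood at 32840 CPM per kb at day 14, against 159 CPM per kb in controls. By library Spp1 had 39133, 25805 and 97424 CPM at day 14, so day 14 C was the highest, against 322 and 201 CPM in controls. Lyz2 stood at 56477 CPM per kb at day 14, against 21014 CPM per kb in controls. Apoe, which carries cholesterol out of macrophages, did not pass the test: it had 17828, 23644 and 26266 CPM at day 14, against 16896 and 34091 CPM in controls. The lysosomal protease Ctss (log2 fold change 2.05 ± 0.29) and the peroxide-reducing enzyme Gpx1 (1.71 ± 0.39) rose, and the ferritin heavy chain Fth1 was at 2.68 ± 0.89 (adjusted p = 0.0675).

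Genes of the hypoxia response rose together. Cells short of oxygen stabilise hypoxia-inducible factors, which bind the letters ACGTG in gene promoters and switch on glucose uptake, glycolysis and vessel growth factors. Of 21 tested hypoxia genes 16 rose and none fell, with a median log2 fold change of 3.78, against -0.08 over all tested genes. Hilpda, a lipid droplet protein that restrains lipolysis, had 1028, 1182 and 1221 CPM at day 14, against 12.5 and 15.2 CPM in controls (6.36 ± 0.57, adjusted p = 4.97e-07). Egln3 (chr12:54178981-54203860), an oxygen-sensing prolyl hydroxylase, had 143, 74.2 and 112 CPM at day 14, against 0 and 0.42 CPM in controls (8.70 ± 1.11). Bnip3, a mitophagy receptor, had 360, 254 and 365 CPM at day 14, against 23.3 and 24.1 CPM in controls (3.78 ± 0.45). All 3 were high in every day 14 library and low in both controls. Slc2a1 (chr4:119108711-119137983), the main glucose transporter, had 593, 376 and 371 CPM at day 14, against 7.77 and 12.9 CPM in controls (5.43 ± 0.46, adjusted p = 2.42e-07). Ndrg1, a stress-responsive protein of the hypoxia response, rose by 4.68 ± 0.52 on the log2 scale, and the nuclear repeat protein Ankrd37 by 3.78 ± 0.47. Vegfa, the main growth factor for blood vessels, had 99.8, 271 and 216 CPM at day 14, against 0.0653 and 0.899 CPM in controls. Members that were not called included Car9, the carbonic anhydrase often used as a hypoxia marker, at 0.09 ± 0.50, and Kdm3a, a histone demethylase, at -0.61 ± 0.50. With the exon length trend of each library as a covariate 12 members rose, and 11 did so in the lowest of the fits that left out a library.

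Of 24 tested glycolysis genes 16 rose and none fell, with a median log2 fold change of 2.21 (14 and 1 with library totals). Aldoa, aldolase, had 3618, 2917 and 4086 CPM at day 14, against 308 and 393 CPM in controls (3.34 ± 0.31). Pkm, pyruvate kinase, had 3621, 2686 and 2241 CPM at day 14, against 349 and 350 CPM in controls (3.03 ± 0.32). The groups were far apart in each of these enzymes, and the same held for Tpi1 (2.98 ± 0.30), Eno1 (2.62 ± 0.25) and Ldha (2.53 ± 0.28), which carry carbon from triose to lactate. Several glycolytic enzymes have processed pseudogenes that can share reads with them, so their levels are uncertain to that extent. Slc2a3, a second glucose transporter, was the member with the lowest value, at -3.91 ± 1.22, and was not called (adjusted p = 0.0524). No glycolysis or hypoxia member differed upward between day 14 and day 2, and Slc2a3 was the single member that fell there, as described below. The subunits of oxidative phosphorylation differed less: 2 of 43 rose and none fell (median 0.82, and 0.26 with library totals). The 2 were the complex I subunits Ndufa9 (1.03 ± 0.24) and Ndufv1 (0.86 ± 0.25). This is near the share over all tested genes, of which 5.51% rose. None of the 43 was called without control A, and 1 was without control B or without day 14 C.

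The promoters of 6 genes from the hypoxia and glycolysis lists are shown as examples whose windows hold the core ACGTG upstream of the RefSeq start. That start can differ from the start of the gene positions printed above, as it does for Slc2a1. The pieces are from RefSeq on build GRCm38.p6, on the strand of the gene and 5′ to 3′, and capitals mark ACGTG or its reverse complement CACGT, which merge into CACGTG where they overlap.
Slc2a1, chr4:119108689-119108733, plus strand: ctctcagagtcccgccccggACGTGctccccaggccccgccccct
Egln3, chr12:54204079-54204123, minus strand: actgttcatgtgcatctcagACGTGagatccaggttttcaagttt
Bnip3, chr7:138909589-138909634, minus strand: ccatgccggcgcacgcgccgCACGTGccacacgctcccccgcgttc
Pgk1, chrX:106186930-106186993, plus strand: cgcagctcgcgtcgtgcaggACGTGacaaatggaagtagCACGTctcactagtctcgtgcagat
Ldha, chr7:46845639-46845794, plus strand: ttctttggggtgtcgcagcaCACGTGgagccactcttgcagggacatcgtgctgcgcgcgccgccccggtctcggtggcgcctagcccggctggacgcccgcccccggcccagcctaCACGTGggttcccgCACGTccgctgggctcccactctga
Hk2, chr6:82774482-82774700, minus strand: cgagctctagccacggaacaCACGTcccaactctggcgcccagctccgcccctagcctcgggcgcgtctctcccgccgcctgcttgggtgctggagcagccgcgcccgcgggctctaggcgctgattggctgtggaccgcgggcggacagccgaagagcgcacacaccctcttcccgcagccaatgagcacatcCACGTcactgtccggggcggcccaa

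RefSeq gave a promoter window, 250 bases before to 50 after the gene's start, to 18 of the 21 hypoxia genes and 22 of the 24 glycolysis genes. ACGTG was found on either strand in 11 of the 18 hypoxia windows (61.1%) and in 11 of the 22 glycolysis windows (50%). Among all tested genes with a window it was in 2778 of 11047 (25.1%), and the longer CACGTG, an E-box that also holds it, was in 1086 (9.83%). Of the members that rose, 8 of 13 hypoxia windows and 9 of 16 glycolysis windows held ACGTG. Pgk1, the glycolytic kinase whose window is shown above, had 50.8, 38 and 50.1 CPM at day 14, against 4.18 and 5.6 CPM in controls (3.24 ± 0.38). Hk2, the inducible hexokinase, had 80.9, 54.2 and 84.3 CPM at day 14, against 28.8 and 13.3 CPM in controls (1.80 ± 0.40). A match is a description of letters and does not show binding.

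Oxidant defence rose as a group. The transcription factor Nrf2, encoded by Nfe2l2, binds antioxidant response elements and drives genes that make and recycle glutathione, thioredoxin and NADPH. Of 28 tested genes 17 rose and none fell (median 1.73), and 8 rose without control A. Slc7a11 (chr3:49892526-50443614), the cystine importer that feeds glutathione synthesis, had 244, 167 and 121 CPM at day 14, against 0.196 and 0.33 CPM in controls (9.29 ± 0.65, adjusted p = 2.67e-08). Prdx6, a peroxidase that also repairs membrane lipids, had 1213, 864 and 1201 CPM at day 14, against 53.3 and 74.7 CPM in controls (4.09 ± 0.41). Prdx1, an abundant thiol peroxidase, had 2955, 2254 and 4566 CPM at day 14, against 371 and 580 CPM in controls (2.78 ± 0.41). The day 14 libraries were above both controls in each. Srxn1, which reactivates peroxiredoxins, rose by 3.24 ± 0.54 on the log2 scale, and Txnrd1, thioredoxin reductase, by 3.10 ± 0.41. The pentose phosphate enzyme Taldo1, a source of sugar phosphates for NADPH recycling, rose by 1.74 ± 0.25. Nfe2l2 itself was at 350, 452 and 370 CPM at day 14, against 161 and 177 CPM in controls (1.21 ± 0.28). Gclm, a subunit of the enzyme that starts glutathione synthesis, had 19.2, 16 and 59.6 CPM at day 14, against 4.18 and 4.65 CPM in controls.

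Of the windows searched in this list, 3 from genes that rose are shown because they hold the core TGACNNNGC of the antioxidant response element upstream of the start. The capitals mark it or its reverse complement GCNNNGTCA in RefSeq sequence of build GRCm38.p6.
Prdx1, chr4:116685446-116685494, plus strand: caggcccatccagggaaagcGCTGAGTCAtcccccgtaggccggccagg
Gclm, chr3:122245403-122245451, plus strand: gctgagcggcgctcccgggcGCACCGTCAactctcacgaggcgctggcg
Nfe2l2, chr2:75704875-75704913, minus strand: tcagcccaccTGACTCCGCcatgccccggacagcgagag

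RefSeq windows were found for 24 of the 28 genes, and 9 of them (37.5%) held the core on either strand, against 1661 of 11047 windows of all tested genes (15%). Of the 14 windows of members that rose, 4 held it, and in the 1 not shown, that of Srxn1, it lay after the start. The neighbouring metabolic lists moved less. Iron and heme genes had 3 of 20 higher, namely Ftl1 (ferritin light chain, 1.69 ± 0.44), Hmox1 (heme oxygenase, 1.37 ± 0.38) and Slc11a1 (a metal exporter of the phagosome, 1.07 ± 0.33), and 1 lower, the haemoglobin scavenger Cd163 (1 higher and 4 lower with library totals); none was called without control A, and 1 rose without control B, day 14 A or day 14 C. None of 12 metallothionein and zinc transporter genes was called by edgeR, with 2 higher at an unadjusted p under 0.05 and 2 called higher by DESeq2, and Mt2 stood at 2.48 ± 0.79 (adjusted p = 0.057). Of 23 genes of the integrated stress response 4 rose, among them Atf3 (2.52 ± 0.47) and the pseudokinase Trib3 (3.63 ± 1.01), and 1 rose without control A or without control B, and 2 without day 14 A. In the unfolded protein response 2 of 20 rose, the chaperones of the endoplasmic reticulum Calr (1.05 ± 0.23) and Pdia6 (1.00 ± 0.24), and none without control A and 1 without control B.

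Inflammatory mediators rose in part. Of 21 tested cytokines 7 rose and 1 fell (median 0.94). Il1rn (chr2:24336853-24351494), the natural antagonist of the interleukin-1 receptor, had 1290, 928 and 976 CPM at day 14, against 22.8 and 15.2 CPM in controls (5.81 ± 0.48, adjusted p = 2.22e-07). Il1b, the agonist, had 1159, 1468 and 961 CPM at day 14, against 25.3 and 29.2 CPM in controls (5.45 ± 0.63). Agonist and antagonist were thus both high in all 3 day 14 libraries. Osm, a cytokine of the interleukin-6 family, had 301, 336 and 230 CPM at day 14, against 24.2 and 18.6 CPM in controls (3.76 ± 0.36). Inhba, which encodes activin A, had 52, 54.3 and 11.7 CPM at day 14, against 0 and 0.42 CPM in controls (7.22 ± 1.28). The macrophage growth factor Csf1 rose by 3.68 ± 0.66 and the costimulatory ligand Tnfsf9 by 1.84 ± 0.39. Il15, which sustains natural killer and memory T cells, was the single member that fell (-1.85 ± 0.52), and it was not called without control A, control B, day 14 A or day 14 C. Tnf, Il6, Il10 and Il12b were not called, with log2 fold changes of 0.94, 0.27, -0.22 and -1.46 in that order.

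Among chemokines, 7 of 13 CXC genes rose (median 2.82) and 1 of 13 CC genes did (median 0.23, and -0.33 with library totals). The share over all tested genes was 5.51%. No gene of either list was called lower, although 1 CXC gene was with library totals. Cxcl3, a neutrophil attractant, had 224, 252 and 225 CPM at day 14, against 1.57 and 2.64 CPM in controls (6.77 ± 0.93). Cxcl2, another, had 631, 834 and 718 CPM at day 14, against 79.5 and 127 CPM in controls (2.82 ± 0.45). Cxcl16, a membrane-bound scavenger of oxidised lipoprotein and a lymphocyte attractant, rose by 2.18 ± 0.38. Cxcl1 (4.17 ± 0.88), Cxcl14 (6.48 ± 1.42) and Ppbp (3.28 ± 0.75) followed. Without control A 3 CXC genes rose. Ccl9 was the CC gene that rose (1.21 ± 0.27), and it was not called without control A. Ccl2, the monocyte attractant, had a log2 fold change of 0.23. Among 11 chemokine receptors 3 rose and none fell: Ccrl2, which binds chemerin (3.37 ± 0.38), Cxcr4, the receptor of Cxcl12 (3.23 ± 0.48), and the decoy receptor Ackr3 (4.90 ± 1.03), and 1 was lower with library totals.

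Among receptors that sense microbes and damage, some rose and others were not called. Of 25 tested pattern recognition genes 12 rose and 1 fell (median 1.26). Clec4e, which encodes the C-type lectin Mincle, had 940, 629 and 945 CPM at day 14, against 17.8 and 6.29 CPM in controls (6.13 ± 0.46, adjusted p = 7.68e-08). Clec4n, which encodes Dectin-2, had 2077, 1761 and 1940 CPM at day 14, against 70.5 and 85.2 CPM in controls (4.63 ± 0.45). Clec4d, the partner of Mincle, rose by 5.52 ± 0.53 and Clec7a, the glucan receptor Dectin-1, by 3.40 ± 0.41. Cd14 had 5278, 4361 and 5058 CPM at day 14, against 383 and 501 CPM in controls (3.47 ± 0.30). These lectins and Cd14 did not overlap between the groups. Of the Toll-like receptors in the list, Tlr2 was called higher, whereas Tlr4 (-0.78), Tlr7 (-0.44) and Tlr9 (-1.32) were not called. Nod1, a cytosolic sensor of bacterial peptidoglycan, fell by 2.15 on the log2 scale, and it was not called without control A or without day 14 C.

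Prostaglandin genes moved in both directions, with 5 of 20 higher and 3 lower (4 and 5 with library totals). Ptgs2, the inducible cyclooxygenase, had 272, 255 and 58 CPM at day 14, against 1.5 and 2.55 CPM in controls (6.56 ± 0.80). Ptges, the inducible prostaglandin E synthase, had 38.2, 18.5 and 20.5 CPM at day 14, against 0.718 and 0.33 CPM in controls (5.69 ± 0.99). Pla2g7, which breaks down platelet-activating factor, had 2289, 1963 and 2226 CPM at day 14, against 398 and 391 CPM in controls (2.45 ± 0.32). Ptgs1, the constitutive cyclooxygenase, had 16.7, 19.7 and 9.64 CPM at day 14, against 73.1 and 69.2 CPM in controls (-2.21 ± 0.54). The inducible and the constitutive enzyme thus lay on opposite sides of the controls. Hpgd, which inactivates prostaglandins, fell by 1.82 and the carbonyl reductase Cbr2 by 2.28 on the log2 scale. Without control A 3 members rose and 1 fell, without control B 3 rose and none fell, and without day 14 C 1 fell.

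Of 19 checkpoint and costimulation genes 8 rose and none fell (median 1.02), with 6 higher and 2 lower under library totals, and 4 rose without control B. Cd274, which encodes the checkpoint ligand PD-L1, had 175, 168 and 61 CPM at day 14, against 22.3 and 14.5 CPM in controls (2.87 ± 0.44). Pdcd1lg2, the gene of PD-L2, had 5.48, 6.91 and 9.91 CPM at day 14 and a single count in the controls, a ratio of 359 with a counting interval of 64.1 to 14189. Havcr2, the inhibitory receptor TIM-3, rose by 2.96 ± 0.48, and the inhibitory receptor Pilra by 2.28 ± 0.35. Both PD-1 ligands were therefore higher in every day 14 library. In the purine list 3 of 18 rose: Nt5e, which makes adenosine from AMP, the nucleotide receptor P2ry2 (6.04 ± 0.86) and the adenosine receptor Adora2a (2.79 ± 0.59). P2ry13, a receptor of ADP, fell (-1.60 ± 0.48), and it was not called in 4 of the 5 fits that left out a library. With library totals 3 purine genes were higher and 5 lower, and with DESeq2 or limma voom 3 and 3. Nt5e had 136, 73.8 and 73.2 CPM at day 14, against 0.0653 and 0.18 CPM in controls.

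Genes of arginine metabolism rose at several steps, with 7 of 17 genes higher and none lower (median 1.39), and 4 higher without control B. With library totals 4 were higher and 2 lower. Both arginine-consuming routes were higher: besides Nos2, the arginases Arg1 (2721, 1932 and 3170 CPM at day 14, against 5.23 and 9.38 CPM in controls) and Arg2 (6.39 ± 0.72) rose. Ass1, which rebuilds arginine from citrulline, had 9.62, 6.52 and 4.67 CPM at day 14, against 0.196 and 0.0899 CPM in controls (5.67 ± 0.71). Asl, which completes that step, rose by 0.91 ± 0.24. Azin1, an activator of polyamine synthesis, rose by 1.57 ± 0.34. By library Nos2 was highest in day 14 A and Arg1 in day 14 C.

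Genes often used to mark alternative, interleukin-4 driven activation moved in both directions, whereas Arg1 rose. Of 18 tested genes 6 fell and 2 rose, while the median was above 0 at 0.24, and -0.33 with library totals, with 1 higher without control A or without control B. Retnla, a resistin-like protein secreted by resting and interleukin-4 treated macrophages, had 519, 314 and 628 CPM at day 14, against 4731 and 8918 CPM in controls (-3.81 ± 0.94, adjusted p = 0.0139). Clec10a (chr11:70156197-70170834), a galactose-binding lectin, had 275, 228 and 127 CPM at day 14, against 876 and 1186 CPM in controls (-2.29 ± 0.33). Mgl2, its close paralog, had 219, 211 and 86.1 CPM at day 14, against 728 and 1159 CPM in controls (-2.46 ± 0.47). Every day 14 library was below both controls in all 3. Irf4, a transcription factor of this programme, fell by 2.39 on the log2 scale. The transglutaminase Tgm2 (4.20 ± 0.74) and the transcription factor Klf4 (1.65 ± 0.41) were the members that rose. DESeq2 called 5 members higher and 6 lower, and limma voom 4 and 6. Chil3, a chitinase-like protein, was at 2.44 ± 0.76 and was not called (adjusted p = 0.0512).

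Lipid-associated macrophages are a state described in fat and injured tissue, in which lysosomal and lipid-handling genes rise. Of 25 such genes 16 rose and none fell (median 2.07). The count was 9 without control A, 10 without control B and 10 without day 14 C. Cd9, a tetraspanin that also takes part in cell fusion, had 1966, 1734 and 4816 CPM at day 14, against 42.1 and 33.5 CPM in controls (6.23 ± 0.61). Lgals3, galectin-3, had 5577, 5673 and 12073 CPM at day 14, against 799 and 1087 CPM in controls (3.04 ± 0.44). Anxa2, a plasminogen co-receptor, had 3682, 2971 and 5013 CPM at day 14, against 749 and 887 CPM in controls (2.25 ± 0.29). Day 14 C was the highest library in each. Plin2, which coats lipid droplets, rose by 1.78 ± 0.27, and the actin-capping protein Capg by 2.15 ± 0.30. Trem2, the receptor that defines the state in fat, was not called (1.36 ± 0.48, adjusted p = 0.0893).

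Among genes of macrophage fusion and of osteoclasts, 10 of 23 rose and none fell (median 3.03), and 6 rose without control B. Ctsk, the collagen-degrading cathepsin of osteoclasts, had 345, 304 and 1269 CPM at day 14, against 5.29 and 9.05 CPM in controls (6.47 ± 1.11). Acp5, tartrate-resistant acid phosphatase, had 253, 285 and 519 CPM at day 14, against 39.1 and 43.9 CPM in controls (3.09 ± 0.47). Dcstamp, a membrane protein needed for fusion in mice, had 49.5, 31.7 and 34.5 CPM at day 14, against 3.53 and 2.25 CPM in controls (3.75 ± 1.01). The groups did not overlap in any of them, and Ctsk was highest in day 14 C.  Cd44, the hyaluronan receptor, rose by 3.16 ± 0.36, and Cd82, a tetraspanin, by 1.5 ± 0.29. Nfatc1, the master factor of osteoclasts, was not called (-0.29).

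Matrix-directed genes rose in part. Of 29 proteases and inhibitors 10 rose and 2 fell (median 0.84). Mmp19, a metalloproteinase of basement membrane proteins, had 238, 185 and 233 CPM at day 14, against 6.73 and 8.36 CPM in controls (4.85 ± 0.49). Mmp14, a membrane-bound collagenase, had 184, 443 and 370 CPM at day 14, against 5.75 and 15.3 CPM in controls (4.97 ± 0.85). Timp1, a secreted inhibitor of metalloproteinases, had 64.3, 47.5 and 108 CPM at day 14, against 1.83 and 1.68 CPM in controls (5.38 ± 0.65). A protease and its class of inhibitor were thus higher together. Adam8, a sheddase of myeloid cells, rose by 3.97 ± 0.64. Timp3 and Adam19 fell in the fit to all libraries, but neither was called in 4 of the 5 fits that left out a library.

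In the list of vessel and scar growth factors 4 of 23 rose and none fell (median 1.26). These were Vegfa, the matrix proteins Thbs1 (6.12 ± 0.96) and Fn1 (3.15 ± 0.71), and the epidermal growth factor family member Areg. Areg had 7.49, 15.6 and 10 CPM at day 14 and 1 count in the controls, a ratio of 545 with a counting interval of 97.6 to 21564. Thbs1, which can activate latent TGF-β, had 1048, 869 and 359 CPM at day 14, against 18.4 and 3.63 CPM in controls. Tgfb1 itself (0.69) and Igf1 (0.10) were not called. Of 24 integrin and adhesion genes 11 rose and 1 fell (median 1.69), with 6 higher without control A and 5 without control B. Itgb2, the common subunit of the leukocyte integrins, had 2253, 1425 and 1365 CPM at day 14, against 455 and 368 CPM in controls (2.03 ± 0.37). Alcam, an adhesion molecule of the immunoglobulin family, rose by 2.02 ± 0.29 and the integrin subunit Itgb5 by 1.64 ± 0.33. Flrt3, a guidance and adhesion protein, had 128, 124 and 40.5 CPM at day 14 and 1 count in the controls, a ratio of 4851 with a counting interval of 870 to 191644. Itga4, a subunit of the receptor for Vcam1, was called lower, although its groups overlapped.

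Lysosomal genes shifted by less. Of 48 tested hydrolase and proton pump genes 13 rose and none fell (median 0.49, and -0.05 with library totals), and 3 rose without control A. Gla, α-galactosidase, had 184, 189 and 181 CPM at day 14, against 41.4 and 27.8 CPM in controls (2.42 ± 0.27). Subunits of the proton pump that rose included Atp6v0c at 1.45 ± 0.23, Atp6v1h at 1.21 ± 0.25 and Atp6v1e1 at 1.33 ± 0.28, while some listed subunits were not called. Among the genes in the list of targets of the factors Mitf and TFE, 3 of 17 rose and none fell, and 1 rose without control A. In cholesterol efflux 6 of 17 rose and 1 fell, with 2 higher without control A or without control B. Abcg1, a cholesterol exporter, had 131, 139 and 142 CPM at day 14, against 57.7 and 35.5 CPM in controls (1.56 ± 0.31), and its regulator Nr1h3, the liver X receptor α, rose by 2.09 ± 0.42. Cyp27a1, which makes an oxysterol, had 43.9, 47.6 and 19.7 CPM at day 14, against 336 and 351 CPM in controls (-3.21 ± 0.52). Of 23 sterol synthesis genes none was called by edgeR, with 4 higher at an unadjusted p under 0.05, 1 called higher by DESeq2 and 1 called lower by limma voom.

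Genes that mark resident macrophages of connective tissue fell. Of 33 tested genes 16 fell and 3 rose, with a median log2 fold change of -2.23, and 9 fell without control A or without control B. Timd4 (chr11:46810800-46844332), a phosphatidylserine receptor of long-lived resident macrophages, had 0.962, 0 and 1.66 CPM at day 14, against 68.1 and 107 CPM in controls (-6.65 ± 1.44). Siglec1 (chr2:131069220-131086765), a sialic acid receptor, had 31.7, 31.9 and 13.6 CPM at day 14, against 426 and 214 CPM in controls (-3.63 ± 0.44, adjusted p = 1.46e-05). Cd209g (chr8:4134098-4137707), a C-type lectin related to DC-SIGN, had 7.32, 1.67 and 6.55 CPM at day 14, against 370 and 517 CPM in controls (-6.42 ± 0.90). Day 14 C was lowest for Siglec1, and no day 14 library reached the lower control in any of the 3. The related Cd209f (-5.62 ± 1.14) and Cd209b (-5.85 ± 1.49) fell as well, and these paralogs can share reads. Fcna, a ficolin that binds microbial sugars, had 120, 82.8 and 56.6 CPM at day 14, against 1112 and 1799 CPM in controls (-4.07 ± 0.77). The endocytic receptor Stab1 fell by 2.23 on the log2 scale and the folate receptor Folr2 by 2.20. Mrc1, the mannose receptor, had 655, 466 and 216 CPM at day 14, against 1601 and 1014 CPM in controls, and its call was close to the threshold (-1.55 ± 0.48, adjusted p = 0.0496).

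The 3 genes of the list that rose were Tmem119, Nr1h3 and Id3. Tmem119, best known as a microglial marker in mice, had 276, 168 and 225 CPM at day 14, against 25.2 and 12.3 CPM in controls (3.57 ± 0.52). Id3, an inhibitor of helix-loop-helix factors, rose by 2.10 ± 0.50.  Further large falls were those of Dnm1 (a dynamin, -4.94 ± 1.33), Hrh1 (the histamine H1 receptor, -4.32 ± 1.16), Enpep (a peptidase of angiotensin, -3.93 ± 1.07) and Tslp (an epithelial cytokine, -3.89 ± 1.17). The falls with the smallest p included Fgd2, an activator of Cdc42, with 57.1, 50.5 and 22.4 CPM at day 14, against 504 and 392 CPM in controls (-3.37 ± 0.43, adjusted p = 2.79e-05). They also included Il16, a T cell attractant (-2.10 ± 0.31), the long noncoding RNA Neat1 (-2.45 ± 0.36) and Mpi, phosphomannose isomerase (-2.06 ± 0.31).

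Uptake receptors changed in both directions. In the efferocytosis list 5 of 19 rose and 2 fell (median -0.15), and with library totals the balance turned to 1 higher and 7 lower (median -0.68). In the scavenger receptor list 5 of 15 rose and 2 fell (median 0.29), and 3 were higher and 3 lower with library totals (median -0.27). Olr1, the receptor of oxidised lipoprotein, had 37.5, 33.1 and 31.7 CPM at day 14, against 1.37 and 1.35 CPM in controls (4.64 ± 0.43). Msr1, scavenger receptor A, had 957, 704 and 657 CPM at day 14, against 228 and 211 CPM in controls (1.81 ± 0.26). Cd163 had 102, 74.3 and 20.2 CPM at day 14, against 517 and 312 CPM in controls (-2.66 ± 0.67). Olr1 and Msr1 thus lay above the controls and Stab1, Timd4 and Cd163 below them. Cd300a, an inhibitory receptor that binds lipids of dying cells, rose by 1.24 ± 0.27. In the efferocytosis list 3 rose without control A or day 14 C and 1 without control B, and 1 fell without control A. In the scavenger list 3 rose without control A, control B or day 14 C, while none fell without control A and 1 without day 14 C. Of 23 complement genes 2 rose, the anaphylatoxin receptor C5ar1 (1.15 ± 0.27) and the integrin Itgax (2.86 ± 0.81), and 1 fell (median -0.71, with 10 lower under library totals). Over all tested genes 5.51% rose and 2.7% fell. No complement gene rose without control B, and 1 did without control A or day 14 C. C4b, complement component 4, had 176, 77.5 and 22.3 CPM at day 14, against 1096 and 546 CPM in controls (-3.16 ± 0.86), and it was not called without control A, day 14 B or day 14 C.

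Antigen presentation genes had levels close to the controls. Of 16 MHC class II genes 3 rose and 1 fell (median -0.17), and 1 was higher and 2 lower with library totals. Cd74, the invariant chain, had 12186, 12668 and 7922 CPM at day 14, against 11409 and 13444 CPM in controls (-0.19 ± 0.41, adjusted p = 0.835). The genes that rose, 1 of them without control A, were Ctss, the costimulatory ligand Cd80 (1.35 ± 0.34) and the lysosomal thiol reductase Ifi30 (1.21 ± 0.33). Ciita, the class II transactivator, had 22, 24.6 and 9.33 CPM at day 14, against 96.9 and 49.7 CPM in controls (-1.97 ± 0.53), and was not called without control A or day 14 C. Interferon-stimulated genes showed 0 of 39 higher and 2 lower (median -0.47), namely Oas2, a sensor of double-stranded RNA (-3.80 ± 0.59), and the signal transducer Stat2 (-1.68 ± 0.50). Day 14 C was the lowest library for both, and 1 gene fell without control A or without day 14 C. Isg15 was at 1.07 and Ifit1 at 0.63, and neither was called.

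Cell cycle genes tended to lie below the controls, but few passed the test, in which 2.7% of all tested genes were lower. Of 40 tested genes 2 fell, the replication helicase subunit Mcm5 (-2.05 ± 0.48) and the mitotic kinase Aurkb (-1.79 ± 0.53), with a median of -1.88. None fell without control B, 1 did without control A, day 14 A or day 14 B, and 5 did without day 14 C. DESeq2 called 13 lower and limma voom 25, and no member was called higher by any of the 3. Mcm5 had 12.7, 8.93 and 12.1 CPM at day 14, against 40.7 and 52.1 CPM in controls. Kif23, a kinesin of cell division outside the list, was among the 12 largest falls by the filter on mean level and overlap, with 0.167, 3.57 and 1.26 CPM at day 14, against 24.5 and 28.3 CPM in controls.

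Immediate-early genes, which can also respond to enzymatic digestion of tissue, rose in 17 of 27 cases and fell in none (median 2.13). Nr4a2, an orphan nuclear receptor, had 153, 202 and 84.3 CPM at day 14, against 0.523 and 0.599 CPM in controls (8.0 ± 0.81). Ier3, a survival factor, had 786, 920 and 1042 CPM at day 14, against 81.7 and 126 CPM in controls (3.14 ± 0.35). Fos, a subunit of AP-1, had 3648, 5410 and 4173 CPM at day 14, against 1050 and 969 CPM in controls (2.13 ± 0.29). All 3 separated the groups, whereas Jun (0.84) and Egr1 (0.93) were not called. Both groups were digested with the same enzyme blend per the labels, and the part of digestion in these changes was not tested.

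**Figure D2:**
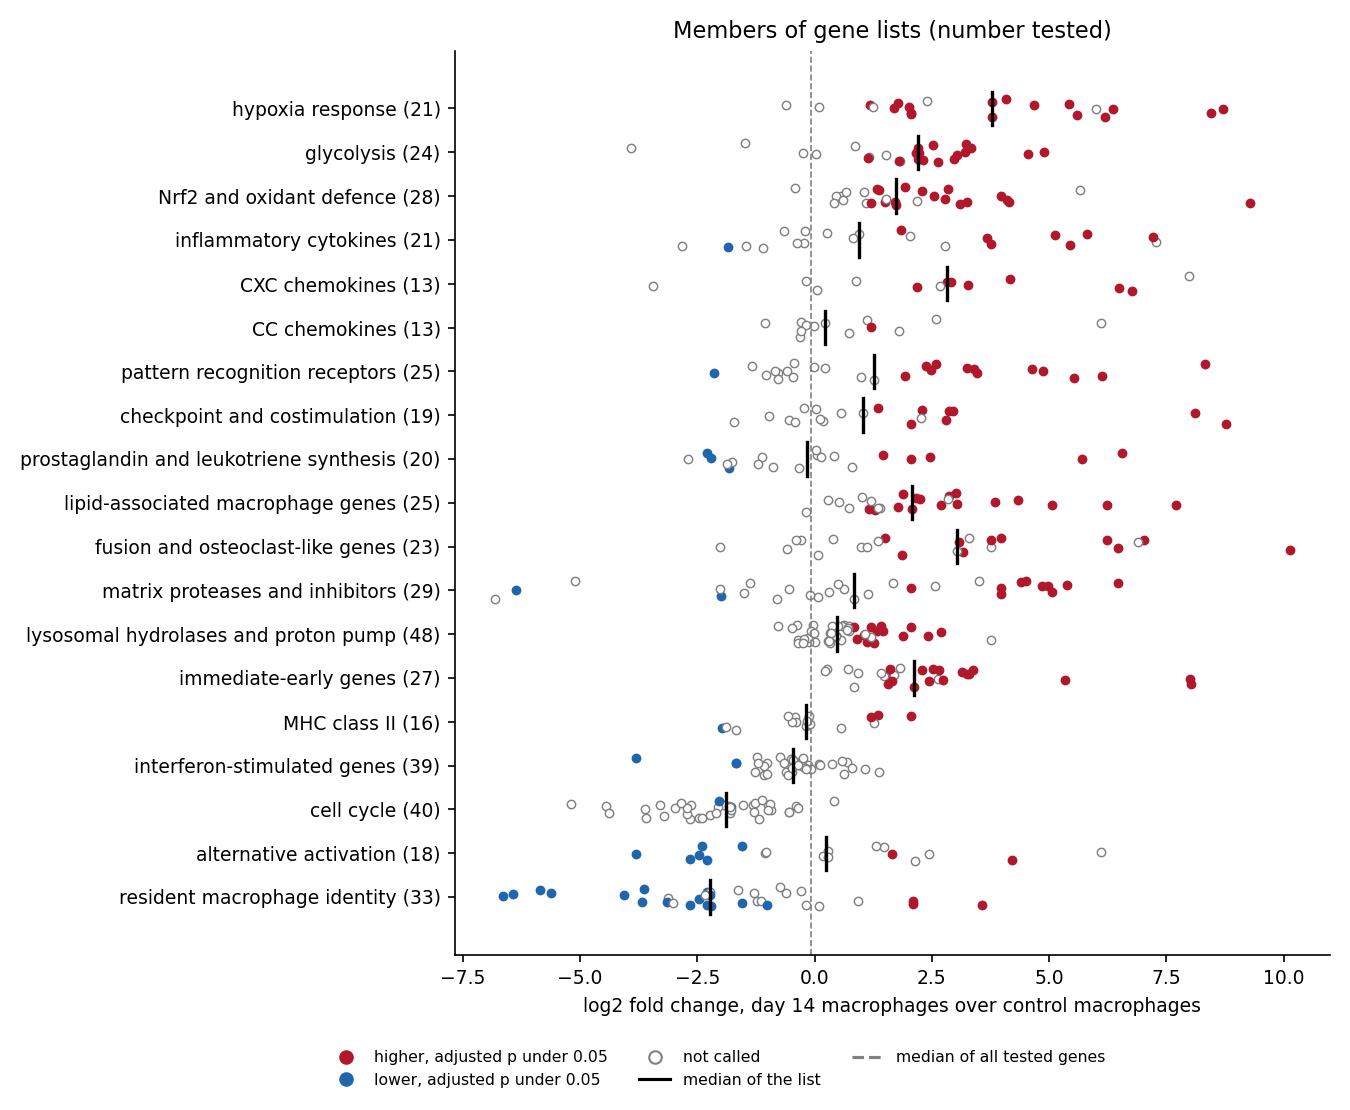
Log2 fold change, day 14 over control macrophages, of each tested member of 19 gene lists, 1 point per gene, with filled points called at an adjusted p under 0.05, a black bar at each list's median and a dashed line at the median of all tested genes, -0.08. Hypoxia genes have the highest median, 3.78, and resident macrophage genes the lowest, -2.23.

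Monocyte genes were measured because a Cx3cr1-positive, Ly6C-low gate can hold cells that recently arose from monocytes. Of 21 classical monocyte genes 10 rose and 1 fell (median 1.43), and 6 rose without control A. Vcan, a matrix proteoglycan of classical monocytes, had 115, 52.9 and 41.2 CPM at day 14, against 1.96 and 0.689 CPM in controls (5.78 ± 0.77). Hp, haptoglobin, had 355, 154 and 309 CPM at day 14, against 8.23 and 10.5 CPM in controls (4.86 ± 0.50). The gate gene Ly6c2 did not share this direction: it had 51.8, 64.9 and 24.2 CPM at day 14, against 236 and 120 CPM in controls (-1.92 ± 0.68, adjusted p = 0.0892). The interferon-induced Ifitm6 was the member that fell (-1.71 ± 0.38), and none fell without control B. Of 17 nonclassical monocyte genes 7 rose and 1 fell, and 3 rose without control A or without control B. Gngt2, a G protein subunit, had 296, 336 and 841 CPM at day 14, against 27.1 and 28.4 CPM in controls (4.15 ± 0.63), and Treml4, a receptor of nonclassical monocytes, rose by 2.47 ± 0.44. Pou2f2, a transcription factor of these cells, fell by 1.59 on the log2 scale.

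Markers of cell types other than macrophages and monocytes gave summed levels well below those of the macrophage markers in both groups. Their part in the results was not tested. Macrophage markers summed to 30664 to 38339 CPM in controls. That list holds Lyz2, which is also on the classical monocyte list, and the monocyte list summed to 26714 to 34397 CPM in controls. The highest sums of the remaining cell types were those of B and plasma cell markers in controls, at 823 to 1151 CPM. Of 18 neutrophil genes 5 rose and none fell, and 1 rose without control A. Their summed level was 162 to 381 CPM at day 14, against 73.5 to 105 CPM in controls, and S100a8, a calcium-binding protein of neutrophils and monocytes, had 82.9, 48.4 and 198 CPM at day 14, against 0.523 and 2.64 CPM in controls. The defining gene Ly6g was at 0.418, 0 and 0.404 CPM at day 14 and at 0 in both controls. Of 20 fibroblast genes none rose and 1 fell, the collagen gene Col1a2 (-2.89 ± 0.87), which was not called in 4 of the 5 fits that left out a library. Their sum was 31 to 97.1 CPM at day 14, against 235 to 286 CPM in controls. T and NK cell markers summed to 108 to 152 CPM at day 14, against 41.3 to 45.5 CPM in controls. Of these 18 genes 1 was higher, against 5.51% of all tested genes. That gene, the interleukin-7 receptor Il7r, had 92.3, 112 and 74.4 CPM at day 14, against 0.914 and 1.44 CPM in controls, whereas Cd3e, a defining chain of the T cell receptor, was at 0, 0.776 and 0.135 CPM at day 14, against 0 and 0.21 CPM in controls.

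B and plasma cell markers summed to 125 to 268 CPM at day 14, against 823 to 1151 CPM in controls. The 1 of 10 tested members that fell, the immunoglobulin heavy chain Ighm, made up most of this, at 253, 248 and 112 CPM at day 14, against 791 and 1116 CPM in controls (-2.22 ± 0.42). The defining gene Cd79a was at 0 in all day 14 libraries and at 1.11 and 1.32 CPM in controls. Of 14 dendritic cell markers 1 rose, Cd24a, and 3 fell; without control A none rose, and without any 1 of the 5 libraries between 0 and 2 fell. Siglech, a marker of plasmacytoid dendritic cells, had 2 counts in all at day 14, against 9.21 and 18.5 CPM in controls, and the others that fell were Dpp4 (-2.73 ± 0.75) and Batf3 (-2.23 ± 0.66). These dendritic sums were 243 to 416 CPM at day 14, against 382 to 397 CPM in controls. edgeR called no gene among 7 tested mast cell, basophil and eosinophil, 12 endothelial, 11 adipocyte and muscle or 6 red cell genes. At an unadjusted p under 0.05 the first of these lists had 2 lower, the second 1 higher and 1 lower, the third 1 higher and 3 lower and the last none, and limma voom called 1 lower in each of the first 3. Their sums were 3.45 to 5.02, 18.2 to 48 and 13.8 to 20.2 CPM at day 14, against 7.71 to 10.5, 33.6 to 33.7 and 37.8 to 43.4 CPM in controls. Of 4 tested keratinocyte genes 1 rose, the epithelial 14-3-3 protein Sfn, and it was not called without control A or without control B. Keratinocyte sums were 4.6 to 6.95 CPM at day 14, against 2.55 to 5.03 CPM in controls, with 10 of the 14 listed genes at 0 in both groups. Red cell sums varied as much within the groups, at 16 to 196 CPM at day 14, against 11.3 to 170 CPM in controls.

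**Figure D3:**
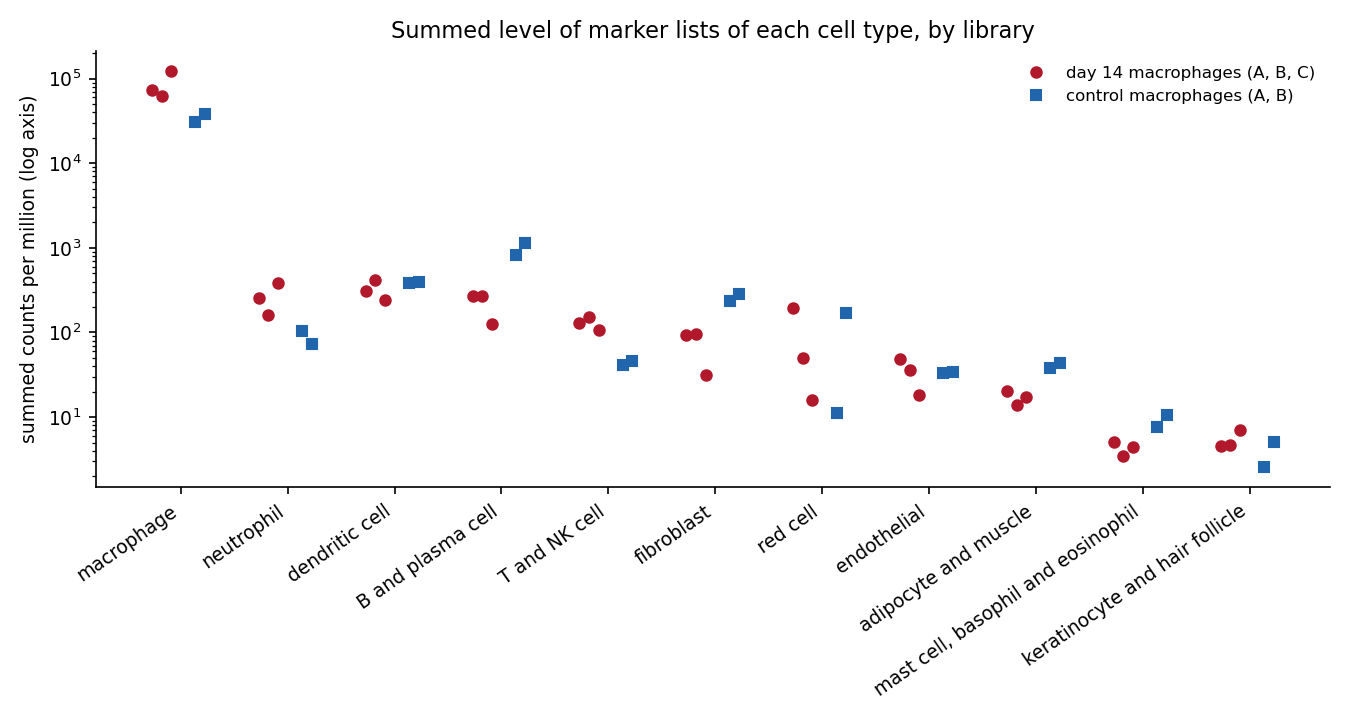
Summed levels in CPM (log axis) of each marker list by library, with day 14 macrophages A, B and C as red circles left of control macrophages A and B as blue squares. Macrophage markers are highest in every library, neutrophil sums are 162 to 381 CPM at day 14 and fibroblast sums 31 to 97.1 CPM.

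The place of day 14 within the response was read against macrophages at day 2 (n = 3). Of the 16260 genes 32 (0.197%) were higher and 45 (0.277%) lower at day 14 than at day 2. The 77 calls became 34 without day 2 A, 42 without day 2 B, 32 without day 14 A and 29 without day 14 B. Antigen presentation genes were higher: 6 of 16 MHC class II genes were higher and none lower. Cd74 had 12186, 12668 and 7922 CPM in day 14 A, B and C, against 2092, 1003 and 3538 CPM in day 2 A, B and C (log2 fold change 2.30 ± 0.39, adjusted p = 0.00549). H2-Aa, a chain of the class II molecule, had 3452, 4155 and 3074 CPM at day 14, against 771, 290 and 1264 CPM at day 2 (2.20 ± 0.46). Every day 14 library was above every day 2 library, at a level that overlapped the controls. H2-Ab1 (2.25 ± 0.48), H2-Eb1 (2.24 ± 0.43), H2-DMb1 (1.61 ± 0.29) and Ciita (2.53 ± 0.52) completed the 6.

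By the same filter over these 6 libraries, the 5 largest rises over day 2 were Slc9b2, C4b, Axl, Itgax and Olfml3. Slc9b2, a sodium-proton exchanger that is induced in osteoclasts, had 9.33, 10.2 and 44.5 CPM at day 14, against 0.521, 0 and 0 CPM at day 2 (6.71 ± 1.14). Axl, a receptor for dying cells, had 195, 164 and 89 CPM at day 14, against 8.57, 4.4 and 19.3 CPM at day 2 (3.82 ± 0.58), and it did not differ from controls by the test. Itgax, the integrin CD11c, had 99.2, 62.7 and 180 CPM at day 14, against 9.33, 2.26 and 14.5 CPM at day 2 (3.74 ± 0.72). The filter admitted only genes whose day 2 and day 14 libraries did not overlap. C4b (4.46 ± 0.89) was higher at day 14 than at day 2 while it was lower than in controls.

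Among neutrophil markers, 8 of 18 were lower at day 14 than at day 2 and none was higher. Their summed level was 162 to 381 CPM at day 14, against 3470 to 7312 CPM at day 2. The iron-binding protein Lcn2 had 1.05, 0.233 and 2.11 CPM at day 14, against 170, 112 and 162 CPM at day 2 (-7.04 ± 0.86, adjusted p = 0.000573). Saa3, an acute-phase apolipoprotein, had 34.5, 21.8 and 50.2 CPM at day 14, against 5724, 2464 and 720 CPM at day 2 (-6.39 ± 1.00). The groups were far apart in both. The kallikrein peptidases Klk9 (-9.09 ± 1.64) and Klk8 (-6.44 ± 1.27) and the glucose transporter Slc2a3 (-7.28 ± 1.28) completed the 5 largest falls. Klk9 had 1 library with counts at day 14, at 0.179 CPM, against 40, 21.1 and 40.3 CPM at day 2. The neutrophil markers moved with these falls, and their part in them was not tested. Arg1 had 2721, 1932 and 3170 CPM at day 14, against 11036, 7742 and 8900 CPM at day 2, and its difference was not called.

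**Figure D4:**
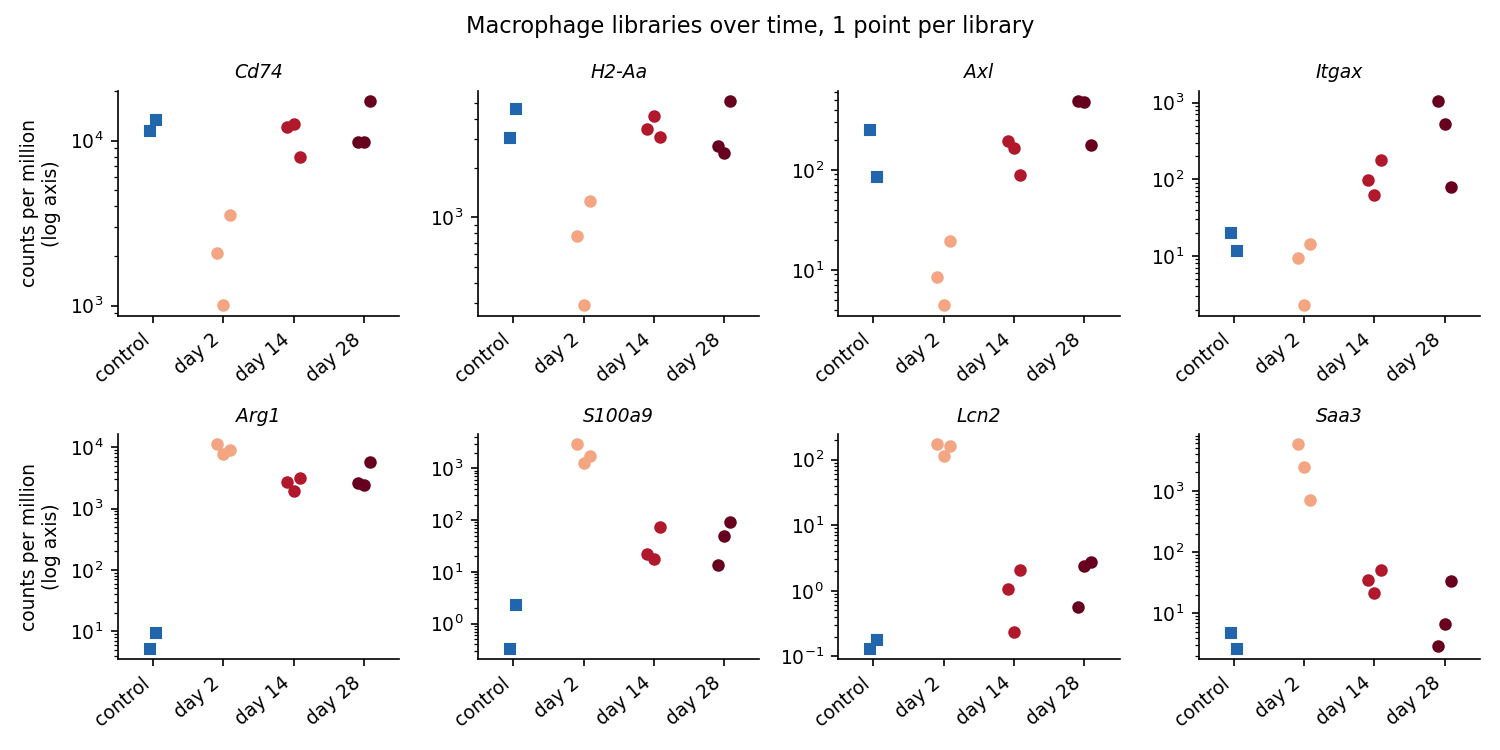
Levels in CPM (log axis) of 8 genes in macrophages of controls and at days 2, 14 and 28 of the implant, 1 point per library. Cd74 and H2-Aa are lower at day 2 than at day 14, when they overlap the control values, and Lcn2 and Saa3 have their highest values at day 2.

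Between day 28 and day 14 the test called 1 gene higher (0.00615%) and none lower, with 1420 genes at an unadjusted p under 0.05, while DESeq2 called 15 higher and 25 lower and limma voom 26 and 53. The gene was Zfp169, a zinc finger protein, and without any 1 of 5 of the 6 libraries no gene was called. Without day 28 C 2 genes were higher and 22 lower. Some genes of interest had wide spreads. Itgax had 1041, 518 and 78.6 CPM at day 28, against 99.2, 62.7 and 180 CPM at day 14, and Nos2 had 9.7, 9.78 and 88 CPM at day 28, against 126, 23.2 and 35.4 CPM at day 14. In both genes the days overlapped.

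The implant effect at day 14 was also set against that in Ly6C-high monocytes, each cell type against its own controls, as the difference of the 2 log2 fold changes. It was higher in macrophages for 529 genes (3.25%) and lower for 698 (4.29%), 7.55% together, and with library totals alone for 716 and 575. The 1227 calls became 573 without macrophage control A, 761 without macrophage control B, 806 without day 14 macrophage library B and 792 without monocyte control C. The resident lectins Cd209g and Cd209f fell in macrophages and were not called in monocytes: the difference was -8.16 for Cd209g and -8.13 for Cd209f. Retnla had opposite signs, -3.81 in macrophages and 4.08 in monocytes (difference -7.89). Arg1 and Spp1 rose in both, with the larger change in monocytes, 8.47 in macrophages and 11.43 in monocytes for Arg1. F10 rose by 5.21 in macrophages and 3.18 in monocytes, a difference of 2.03.

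In the hypoxia list 4 of 21 genes differed between the cell types, with a median difference of -1.06. The difference was 3.24 for Ndrg1, -2.64 for Hilpda, -2.35 for Ankrd37 and -1.10 for Plin2. Of 24 glycolysis genes edgeR called none, with 4 higher and 5 lower at an unadjusted p under 0.05, while DESeq2 called 1 higher and 4 lower and limma voom 1 and 3. In the cytokine list 7 of 21 differences were lower in macrophages, in the CXC list 7 of 13 and in the CC list 8 of 13, and none was higher. Among called genes averaging 10 CPM or more over the libraries compared, the 5 largest differences above 0 were those of Camp, Ngp, Elane, S1pr5 and Ltf, and the 5 largest below 0 those of Col1a1, Col1a2, Dcn, Col3a1 and Serping1. Camp, Ngp, Elane and Ltf are neutrophil granule genes, and Col1a1, Col1a2, Dcn and Col3a1 are on the fibroblast list. S1pr5 and Serping1 are on neither the neutrophil nor the fibroblast list. None of these 10 genes was called in macrophages except Col1a2. Ngp averaged 0.016 CPM in day 14 monocytes, against 1108 CPM in control monocytes. Dcn averaged 199.98 CPM in day 14 monocytes, against 0.0246 CPM in control monocytes. These markers of other cells moved with the monocyte groups, and their part in the differences was not tested.

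**Figure D5:**
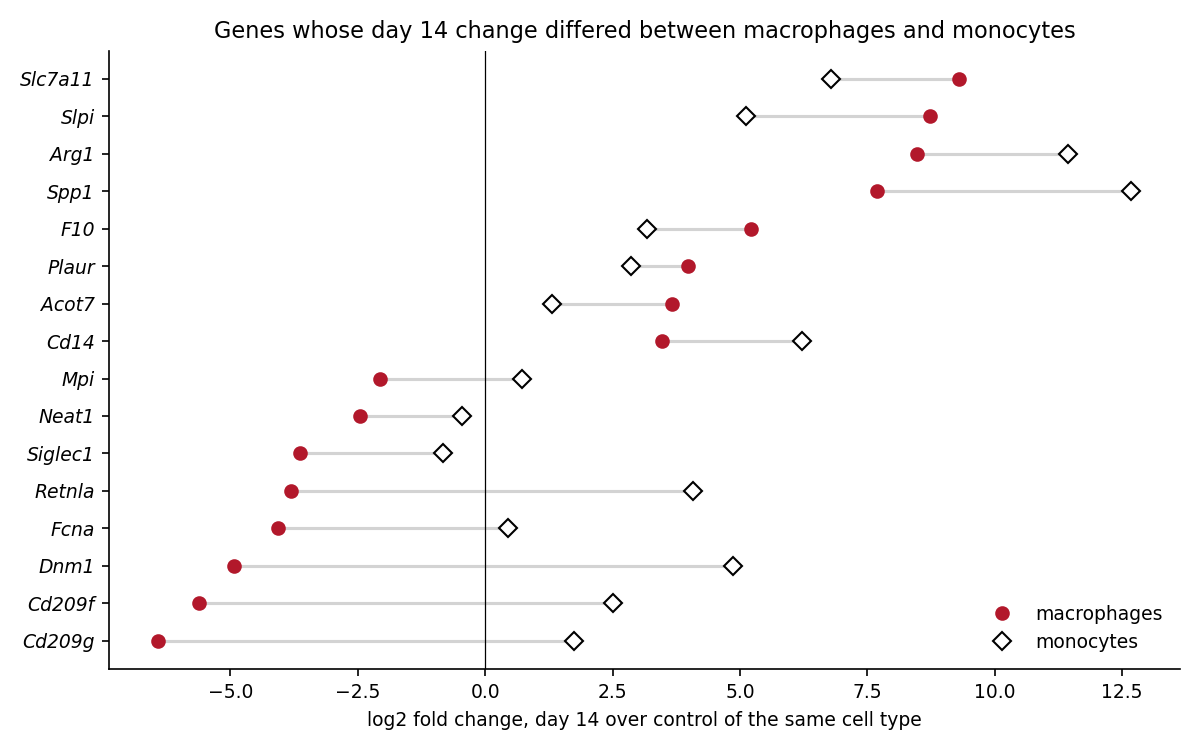
Log2 fold change, day 14 over control of the same cell type, in macrophages (red circles) and monocytes (open diamonds) for 16 genes whose change differed between the cell types. Cd209g, Cd209f, Dnm1, Retnla, Fcna and Mpi lie below 0 in macrophages and above 0 in monocytes, and Arg1, Spp1 and Cd14 rose more in monocytes.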

How the data were processed

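RNA was measured in 23 libraries of macrophages and monocytes, of which 5 are compared here. Per the labels' protocols, RNA was amplified with SMART-Seq v4, tagmented with Nextera XT and read from 1 end over 75 bases. Per the submitters' processing notes, the tools were bcl2fastq, STAR 2.4.1d and featureCounts of Subread 1.5.1, with build GRCm38. Which annotation release was counted, with what strand option and how multiply matching reads were treated is not given in the sources used. SMART-Seq keeps no strand, so overlapping and antisense genes cannot be told apart. The deposited values are raw counts per gene, as whole numbers in 47729 entries with no molecular identifiers, so intervals cover counting error only. Per the design note replicates were biological.

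GENCODE M21 gave symbols, positions and exon lengths to 47310 entries, and the other 419 held 0.095% of counts. Genes with enough counts by filterByExpr were fitted in all 23 libraries and 8 groups with edgeR 4.0.16 (R 4.3.3), TMM factors and robust quasi-likelihood dispersions, and p-values were adjusted by Benjamini-Hochberg over all 16260. Standard errors are the log2 fold change over the root of F. Fold changes used a prior count of 0.125. A gene at 0 in a group was set against 3 counts over that group, and with 1 to 3 counts the ratio has an exact 95% interval. CPM values are per TMM-scaled library. The fit was also run on simulated data. These lacked the composition and exon length differences between day 14 and control macrophages, so that run cannot speak to them. Motifs were searched in RefSeq windows of GRCm38.p6.

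Called genes averaging 10 CPM or more over the libraries compared whose groups did not overlap supplied the 12 largest rises and falls and the 10 smallest p in each direction. Also named are the 10 most abundant per kilobase, up to 6 members per list by p, members moving against their list, and the 5 largest changes each way in other comparisons. Genes named after their values were seen are Tlr2, Tlr4, Tlr7, Tlr9, Tnf, Il6, Il10, Il12b, Ccl2, Igf1, Tgfb1, Nfatc1, Dcstamp, Trem2, Chil3, Mrc1, Folr2, Isg15, Ifit1, Jun, Egr1, Car9, Kdm3a, Hk2, Nfe2l2, Gclm, Cd3e, H2-Aa, H2-Ab1, H2-Eb1 and H2-DMb1. The members and the 48 lists were chosen with earlier results of these data known. Alternatives were DESeq2 1.42.0, limma 3.58.1 voom, RLE factors, no filter, thinned counts, glmTreat, a replicate block, fewer libraries and each library left out. After the data were seen, library totals, macrophage libraries only and a length covariate were added.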

Additional observations from a re-analysis of the deposited data

Results flagged for a closer look

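For 16 genes that changed in macrophages the implant effect at day 14 differed between macrophages and monocytes by the interaction test of edgeR, over all genes tested, each cell type set against its own controls. The differences are log2 fold changes, macrophages minus monocytes.

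In 5 genes the rise was larger in macrophages. The difference was 2.51 for Slc7a11 (9.29 in macrophages and 6.78 in monocytes), 3.60 for Slpi (8.72 and 5.12 in the same order) and 2.03 for F10 (5.21 and 3.18). It was 1.12 for Plaur (3.97 and 2.85) and 2.36 for Acot7 (3.67 and 1.31). In 3 genes the rise was larger in monocytes, with differences of -2.96 for Arg1 (8.47 in macrophages and 11.43 in monocytes), -2.74 for Cd14 (3.47 and 6.21) and -4.98 for Spp1 (7.69 and 12.67).

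The other 8 genes fell in macrophages. In the 4 with the largest differences the monocyte value had the opposite sign: the difference was -8.16 for Cd209g (-6.42 in macrophages and 1.74 in monocytes), -8.13 for Cd209f (-5.62 and 2.51), -9.80 for Dnm1 (-4.94 and 4.86) and -7.89 for Retnla (-3.81 and 4.08). The sign was also opposite for Fcna, with a difference of -4.51 (-4.07 and 0.44), and for Mpi, with -2.78 (-2.06 and 0.72). For Siglec1 the difference was -2.80 (-3.63 and -0.84) and for Neat1 -2.00 (-2.45 and -0.45). Neutrophil markers were high in control monocytes and fibroblast markers in day 14 monocytes, and their part in these differences was not tested.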

How the results depend on the processing

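The 1335 calls between day 14 and control macrophages became 2238 with DESeq2, 2455 with limma voom and 407 with a test against a change of at least 2-fold, and leaving out 1 library gave 417 to 1128. Counts by the other settings were within 1.5 times, but 67.1% of calls were higher in the fit reported, 26.5% with library totals and 45.3% with voom. Similar counts did not mean the same genes. Of the 1335 calls, 834 were kept in the same direction with the length covariate, 956 with library totals and 791 with only the groups compared. RLE factors kept 1265 and the replicate block 1063. Between day 14 and day 2, the 77 calls became 334 with DESeq2, 721 with voom, 32 with the 2-fold test, 49 in macrophage libraries only, 682 with no filter and 145 with only the groups compared, and 29 to 108 without 1 library. Between day 28 and day 14, the 1 call became 40 with DESeq2, 79 with voom and 252 with no filter. It became 0 with the 2-fold test, thinned counts, the length covariate, macrophage libraries only, only the groups compared and the replicate block, and 0 to 24 without 1 library. For macrophages minus monocytes, the 1227 calls became 2213 with DESeq2, 2685 with voom, 536 with the 2-fold test and 2366 with no filter, and 573 to 1297 without 1 library. The cause of these shifts was not tested.

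With 2 controls, whose deviations are mirror images, the data cannot show whether replicate letters pair day 14 with control libraries. Same-letter correlations of deviations were -0.075 to 0.0523 between day 14 and day 2 and 0.0128 to 0.104 between day 28 and day 14, and not every library correlated best with its own letter. With the letter as a replicate block 1082 genes were called between day 14 and controls, 66 between day 14 and day 2 and 942 for macrophages minus monocytes.

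Of 260 named gene changes in all comparisons, 31 lost their call with the length covariate, 22 with library totals and 79 with the 2-fold test. With library totals 3 gained a call. Without 1 day 14 library 28 to 32 of the 260 lost their call. A larger share of the named changes lost it without either control, in fits that leave 1 control library. With DESeq2 1 of 258 lost its call and 9 gained a call. Direction turned only in genes that were not called in the fit reported. With the length covariate, log2 fold changes over control were 0.052 for Adgre1, -0.35 for B2m, -0.66 for Ccl2, -0.65 for Ifitm3, -0.23 for Igf1, -0.69 for Il6, 0.58 for Kdm3a, 0.58 for Nfatc1, 0.15 for Tlr4 and -0.26 for Tmsb4x. With library totals they were -0.012 for B2m, -0.48 for Car9, -0.33 for Ccl2, -0.20 for Ifitm3, -0.48 for Igf1 and -0.30 for Il6. Voom gave -0.10 for Igf1 and -0.22 for Il6, the block -0.00640 for Il6 and thinned counts -0.0234 for Car9. Leaving out 1 library in turn gave -0.61 to 0.45 for Apoe, -0.081 to 0.31 for Car9, -0.80 to 5.88 for Cd3e, -1.01 to 0.18 for Cx3cr1, -0.27 to 0.32 for Igf1 and -0.47 to 0.089 for Il10. The range was -2.46 to 6.14 for Il12b, -0.25 to 1.19 for Il6, -1.09 to 0.20 for Kdm3a and -0.73 to 0.42 for Nfatc1. For day 28 over day 14 it was -2.66 to 0.29 for Nos2. With 2 control libraries, each control weighed heavily, and 3 counts corresponded to 0.0899 to 0.196 CPM by library.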
